A study of Mus musculus with 6 samples.

Results

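The 10 genes described here encode proteoglycans and glycoproteins of the extracellular matrix and of elastic fibres: Bgn, Dcn, Lum, Fmod, Vcan, Fbln1, Fbln2, Fbn1, Eln and Sned1. They were found by symbol among the 20475 genes of the deposited table, and each matched 1 row. The libraries came from NIH3T3, an established mouse embryonic fibroblast line, at passage 5. The cells had been given phosphate-buffered saline (PBS; 2 libraries), extracellular vesicles (EVs) of MCF10A (2 libraries) or EVs of MDA-MB-231 (2 libraries). MCF10A is a human mammary epithelial line that does not form tumours, and MDA-MB-231 is a line from a human breast cancer of the triple-negative class. EVs are membrane-bound particles that cells release. They were suspended in PBS, and RNA was extracted after 48 h. All 3 groups were grown in the same serum-containing medium. The labels give no genetic change in any group and do not state that the 2 libraries of a group came from different cultures. The p-values therefore measure only how far these samples spread, which may be technical.

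Small leucine-rich proteoglycans such as decorin (Dcn), biglycan (Bgn), lumican (Lum) and fibromodulin (Fmod) bind collagen fibrils and influence their assembly, and decorin and biglycan also bind growth factors such as TGF-beta. Versican (Vcan) is a large chondroitin sulfate proteoglycan that binds hyaluronan and forms a hydrated matrix around cells. Elastic fibres consist of an elastin (Eln) core on microfibrils built of fibrillin-1 (Fbn1), with fibulins (Fbln1 and Fbln2) bridging these to other matrix proteins. Sned1 encodes a matrix glycoprotein with sushi, nidogen and EGF-like domains and is neither a proteoglycan nor an elastic fibre component. Fibroblasts are the main producers of these proteins in connective tissue.

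The RefSeq promoter table (GRCm38.p6) held windows for 7 of the 10 genes. Dcn, Lum and Eln had none. The windows of the 4 genes among these 7 whose levels differed between groups are printed 5′ to 3′ over the 250 bases before the annotated start, because they are the sequences next to the transcripts described below. Capitals mark matches on either strand to 6 short motifs. These were the TATA box core TATAAA, the CCAAT box core CCAAT, the GC box core GGGCGG, the AP-1 core TGANTCA, the TEAD core GGAATG and the E-box core CACGTG.
Sned1, chr1:93235647-93235896, plus strand: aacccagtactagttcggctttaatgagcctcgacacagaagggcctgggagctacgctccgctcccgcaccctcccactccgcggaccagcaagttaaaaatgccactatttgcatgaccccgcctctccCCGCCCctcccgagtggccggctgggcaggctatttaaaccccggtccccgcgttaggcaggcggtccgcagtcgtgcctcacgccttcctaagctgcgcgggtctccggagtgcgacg
Bgn, chrX:73483351-73483600, plus strand: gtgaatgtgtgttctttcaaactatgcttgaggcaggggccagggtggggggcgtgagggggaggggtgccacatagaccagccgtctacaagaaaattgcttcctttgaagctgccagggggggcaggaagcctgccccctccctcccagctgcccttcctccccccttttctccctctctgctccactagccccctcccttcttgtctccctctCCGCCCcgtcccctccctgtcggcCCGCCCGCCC
Vcan, chr13:89742513-89742762, minus strand: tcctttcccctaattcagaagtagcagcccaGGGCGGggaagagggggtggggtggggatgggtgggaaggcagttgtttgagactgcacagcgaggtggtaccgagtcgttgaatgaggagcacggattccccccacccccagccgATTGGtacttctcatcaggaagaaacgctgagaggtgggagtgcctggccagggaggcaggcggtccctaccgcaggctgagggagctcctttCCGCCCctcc
Fbln2, chr6:91212514-91212763, plus strand: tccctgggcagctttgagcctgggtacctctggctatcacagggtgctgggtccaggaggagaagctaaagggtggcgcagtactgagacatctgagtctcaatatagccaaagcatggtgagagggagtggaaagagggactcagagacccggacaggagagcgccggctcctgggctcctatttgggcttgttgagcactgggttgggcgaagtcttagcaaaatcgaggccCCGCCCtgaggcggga
Each of these windows held the GC box core, and the 2 matches nearest the start of Bgn overlapped each other. A window of Fbn1 and one of Fbln1, neither of which limma called in a comparison, held it too, so that 6 of the 7 genes with a window held it. That core was in 32.7% of the 32851 windows of the same length in the table. The GC content of the 4 windows was 58.8% to 64.4%, beside a median of 52.4% over all windows. Vcan also held the CCAAT box core, which was in 33.8% of all windows. The letters of the TATA box, AP-1, TEAD and E-box cores were in none of the 4 windows and were in 12.4%, 6.75%, 12.6% and 6.02% of all windows.

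The libraries held 22451173 to 29315530 gene reads, which puts a gene with 3 reads at 0.102 to 0.134 CPM, that is, per mega-read. Levels are given as normalised reads, the deposited values adjusted to a common library size, and a group value is a mean ± SD over 2 libraries. The 8 fibroblast markers, among them Col1a1, Col1a2, Pdgfra and Vim, all passed the filter for testing. They summed to 364875 to 365058 normalised reads a library in the PBS group, 311155 to 317926 after MCF10A EVs and 311805 to 319356 after MDA-MB-231 EVs. Of the 6 epithelial markers Epcam, Krt5 and Krt18 had 0 reads in all 6 libraries, and the list summed to 43.5 to 48.7 normalised reads in the PBS group, 35.4 to 40.7 after MCF10A EVs and 28.5 to 36.1 after MDA-MB-231 EVs. The 3 cycling cell markers Mki67, Top2a and Ccnb1 summed to 30567 to 31229 in the PBS group, 37549 to 38432 after MCF10A EVs and 41370 to 41727 after MDA-MB-231 EVs. Markers of other cell types also moved with treatment. The macrophage and leukocyte markers, of which 4 of 6 were in the table and 3 passed the filter, summed to 3023 to 3120 in the PBS group, 1768 to 1820 after MCF10A EVs and 977 to 1040 after MDA-MB-231 EVs. All 5 endothelial markers passed, and they summed to 350 to 358, 289 to 339 and 155 to 190 in the same order of groups. The 4 smooth muscle markers summed to 1583 to 1804, 2529 to 2691 and 2120 to 2152, and the 4 chondrocyte markers, of which 3 passed, to 1063 to 1080, 850 to 995 and 1260 to 1316. No marker of these 4 lists that was in the table had 0 reads in all libraries. Only 1 marker each of the leukocyte, endothelial and chondrocyte lists had a mean of at least 100 normalised reads, and 2 smooth muscle markers did. These sums therefore rest on few genes and do not show that the markers of a list moved together. The leukocyte and endothelial sums had the same order of groups as Dcn below. The cycling sum had the reverse order, lowest with PBS and highest with MDA-MB-231 EVs, without overlap between groups. The smooth muscle and chondrocyte sums had other orders. The fibroblast and epithelial sums were highest with PBS and overlapped between the EV groups. The part that any of these summed levels has in the results was not tested.

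Decorin, biglycan and versican transcripts were the most abundant of the 10 genes per length. With PBS the level per kb of exon was 8743 ± 8.81 normalised reads for Dcn, 4043 ± 109 for Bgn and 3622 ± 50 for Vcan. Dcn stood at rank 121, Bgn at 215 and Vcan at 234 among the 19606 genes that had a length, by the mean over all libraries. Fbln2 followed at 1349 ± 19.8 per kb, Fbn1 at 799 ± 28.0, Lum at 388 ± 13.3, Fbln1 at 70.8 ± 2.47 and Sned1 at 18.4 ± 0.809. This order of levels between genes rests on the summed exon length of each gene in an annotation the authors may not have used, and it was not tested. With MCF10A EVs Vcan, at 4338 ± 32.2 per kb, lay above Bgn, at 3934 ± 40.1. With MDA-MB-231 EVs Dcn, at 4660 ± 141, came within the spread of Bgn, at 4523 ± 179.

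**Figure D1:**
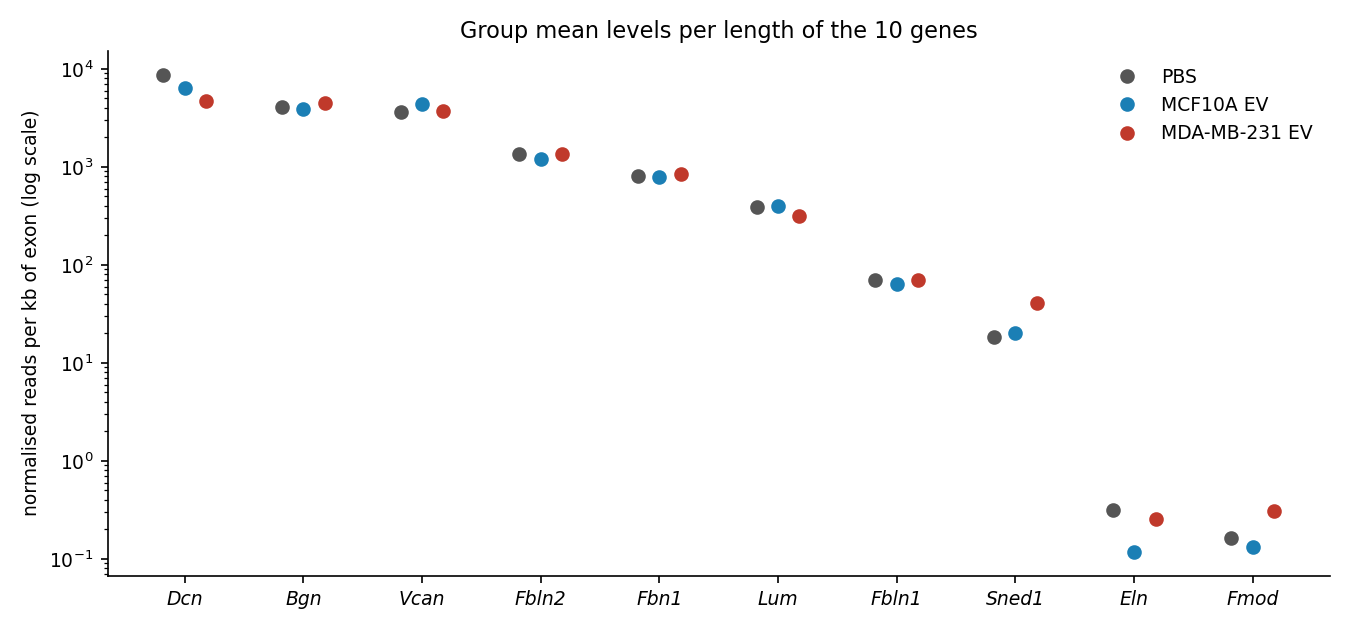
Group mean levels per length of the 10 genes, in normalised reads per kb of exon on a log scale, ordered by the level with PBS. Each point is the mean of 2 libraries of 1 group, and Dcn, Bgn and Vcan are the 3 highest in every group while Eln and Fmod reach at most 0.313 per kb.

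Elastin and fibromodulin transcripts were at the limit of detection. Eln, which encodes the elastic fibre core protein, had 1 to 3 reads in each library, and Fmod had 0 to 2. Both were at or under a level of 3 reads in all 6 libraries, so no change is given for either. They passed the filter on low values, which asked for 1 normalised read in 2 libraries, and are counted among the 10 genes below as not called. The other 8 genes had at least 156 reads in every library.

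Decorin showed the largest fall of the 10 genes. Dcn, on chromosome 10, stood at 51006 and 51079 normalised reads in the PBS libraries, 38565 and 35808 after MCF10A EVs and 27785 and 26621 after MDA-MB-231 EVs. The 3 groups did not overlap, with PBS highest and MDA-MB-231 EVs lowest. Dcn fell 1.88-fold with MDA-MB-231 EVs against PBS (log2 change -0.91, SE 0.033, limma adjusted p = 3.03e-11) and 1.37-fold with MCF10A EVs against PBS (log2 change -0.46, SE 0.033, limma adjusted p = 1.42e-07). It was also 1.37-fold lower with MDA-MB-231 than with MCF10A EVs (log2 change -0.45, SE 0.033, limma adjusted p = 2.55e-07). Fold changes here and below are on the scale of log2 of the value plus 1. Of the 10309 genes with a mean of at least 100 normalised reads, 1.25% differed more than Dcn between MDA-MB-231 EVs and PBS. In these bulk libraries fewer cells expressing a gene and less of its RNA per cell cannot be told apart.

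Lumican, the next gene to Dcn on chromosome 10 in RefSeq, had a different order of groups. Lum stood at 927 and 973 normalised reads in the PBS libraries, 974 and 988 after MCF10A EVs and 779 and 773 after MDA-MB-231 EVs. Both libraries with MDA-MB-231 EVs were below the other 4. Lum fell 1.22-fold with MDA-MB-231 EVs against PBS (log2 change -0.29, SE 0.051, limma adjusted p = 3.28e-04) and was 1.26-fold lower than with MCF10A EVs (log2 change -0.34, SE 0.051, limma adjusted p = 2.95e-04). With MCF10A EVs against PBS its log2 change was 0.05, with a 95% confidence interval from -0.06 to 0.15 (limma adjusted p = 0.548). The next 2 genes along the chromosome, Kera and Epyc, are also small leucine-rich proteoglycan genes and had 0 to 3 reads a library and 0 reads.

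Biglycan transcripts were highest with MDA-MB-231 EVs, where those of decorin were lowest. Bgn, on the X chromosome, stood at 25128 and 24186 normalised reads in the PBS libraries, 23822 and 24167 after MCF10A EVs and 28359 and 26814 after MDA-MB-231 EVs. Both libraries with MDA-MB-231 EVs were above the other 4. The rise was small, 1.12-fold against PBS (log2 change 0.16, SE 0.031, limma adjusted p = 6.83e-04) and 1.15-fold against MCF10A EVs (log2 change 0.20, SE 0.031, limma adjusted p = 3.43e-04). Leaving out a library leaves its group with 1, which is then assumed to vary like the other groups. The call against PBS was lost without PBS replicate 2, at a log2 change of 0.13 (limma adjusted p = 0.0576), and by limma without a mean-variance trend (limma adjusted p = 0.0853). Against MCF10A EVs the call was likewise lost without the trend (limma adjusted p = 0.12). With MCF10A EVs against PBS the log2 change was -0.04, with an interval from -0.10 to 0.03, and it turned to 0.01 under quantile scaling.

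The ratio of biglycan to decorin reads within a library does not depend on how libraries are scaled. The PBS libraries held 0.493 and 0.474 Bgn reads for each Dcn read, those after MCF10A EVs 0.618 and 0.675, and those after MDA-MB-231 EVs 1.02 and 1.01. Vcan reads for each Dcn read were 1.02 and 1.04, then 1.64 and 1.74, then 1.96 and 2.02 in the same order of groups. Neither ratio overlapped between groups, and neither was tested. The share of all gene reads taken by the 10 genes ranged from 0.533% to 0.587%.

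**Figure D2:**
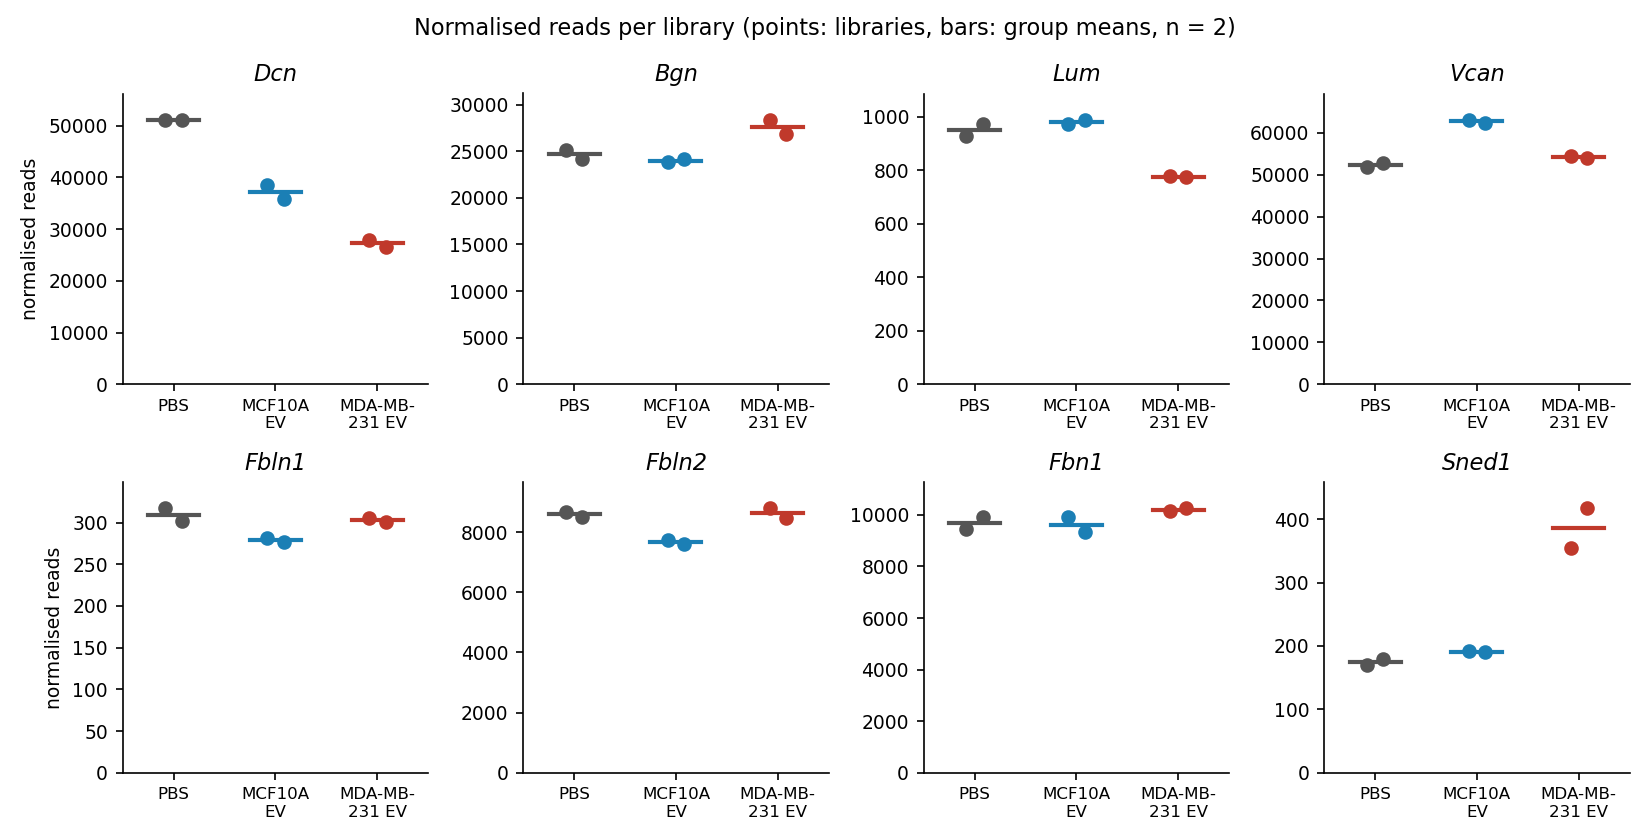
Normalised reads in each library of the 8 genes above the limit of detection, by treatment. Points are libraries and bars are means of 2, with each axis starting at 0. Dcn falls from about 51043 with PBS to 27203 with MDA-MB-231 EVs, while Vcan is highest with MCF10A EVs and Sned1 with MDA-MB-231 EVs.

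Versican was the 1 gene of the 10 that limma called higher with MCF10A EVs against PBS. Vcan, on chromosome 13, stood at 51874 and 52897 normalised reads in the PBS libraries, 63062 and 62403 after MCF10A EVs and 54527 and 53899 after MDA-MB-231 EVs. Both libraries with MCF10A EVs were above the other 4. The rise over PBS was 1.20-fold (log2 change 0.26, SE 0.025, limma adjusted p = 2.33e-06), and the level with MDA-MB-231 EVs was 1.16-fold lower than with MCF10A EVs (log2 change -0.21, SE 0.025, limma adjusted p = 3.86e-05). That second call was lost by limma without a trend (limma adjusted p = 0.0701). Between MDA-MB-231 EVs and PBS the log2 change of Vcan was 0.05, with an interval from -0.00 to 0.10 (limma adjusted p = 0.153). It was called higher under quantile scaling, at 0.15 (limma adjusted p = 3.34e-05), and with library totals, at 0.12 (limma adjusted p = 2.81e-04).

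Of the fibulins, Fbln2 was lower with MCF10A EVs. Fbln2, on chromosome 6, stood at 8684 and 8506 normalised reads in the PBS libraries, 7732 and 7618 after MCF10A EVs and 8786 and 8471 after MDA-MB-231 EVs. Both libraries with MCF10A EVs were below the other 4, and those with MDA-MB-231 EVs overlapped PBS. Fbln2 fell 1.12-fold with MCF10A EVs against PBS (log2 change -0.16, SE 0.029, limma adjusted p = 5.38e-04) and was 1.12-fold higher with MDA-MB-231 than with MCF10A EVs (log2 change 0.17, SE 0.029, limma adjusted p = 9.13e-04). Both calls were lost by limma without a trend (limma adjusted p = 0.0646 and limma adjusted p = 0.116). Between MDA-MB-231 EVs and PBS the log2 change was 0.01, with an interval from -0.06 to 0.07, but with library totals it was 0.07 and called higher (limma adjusted p = 0.0381). Fbln1, on chromosome 15, stood at 317 and 302 in the PBS libraries, 281 and 277 after MCF10A EVs and 306 and 301 after MDA-MB-231 EVs. It was called in none of the 3 comparisons by limma, with adjusted p from 0.229 to 0.842, and its 95% interval for MCF10A EVs against PBS ran from -0.33 to 0.04.

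The gene of fibrillin-1, the main microfibril protein, was called by limma in no comparison. Fbn1, on chromosome 2, stood at 9454 and 9934 normalised reads in the PBS libraries, 9899 and 9346 after MCF10A EVs and 10165 and 10249 after MDA-MB-231 EVs. Both libraries with MDA-MB-231 EVs were above the other 4. The log2 change with MDA-MB-231 EVs was 0.07 against PBS (interval 0.00 to 0.15, limma adjusted p = 0.0977) and 0.09 against MCF10A EVs (interval 0.01 to 0.16, limma adjusted p = 0.0969). The call depended on scaling and on the filter. Both changes were called higher with library totals, at 0.14 and 0.13, under quantile scaling, at 0.14 and 0.12, and with a filter of 5 CPM. By edgeR the second alone was called (edgeR adjusted p = 0.0306).

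Sned1 had the largest rise of the 10 genes and was also the least abundant of the 8 with more than a few reads. It stood, on chromosome 1, at 170 and 180 normalised reads in the PBS libraries, 192 and 190 after MCF10A EVs and 354 and 417 after MDA-MB-231 EVs. Both libraries with MDA-MB-231 EVs were far above the other 4, and they differed from each other more than those of the other 2 groups. Sned1 rose 2.19-fold with MDA-MB-231 EVs against PBS (log2 change 1.13, SE 0.11, limma adjusted p = 8.41e-07) and was higher than with MCF10A EVs by the same test (log2 change 1.00, SE 0.11, limma adjusted p = 1.20e-05). Of the genes with a mean of at least 100 normalised reads, 0.64% and 0.165% differed more in these 2 comparisons. With MCF10A EVs against PBS its log2 change was 0.13, with an interval from -0.10 to 0.36 (limma adjusted p = 0.421). Other called changes were more common in size. With MDA-MB-231 EVs against PBS 45.3% of these more abundant genes differed more than Bgn and 22.2% more than Lum. With MCF10A EVs against PBS 40.8% differed more than Fbln2, 21.5% more than Vcan and 5.48% more than Dcn. Between the EVs the shares were 22.8% for Fbln2, 16.9% for Bgn, 15.2% for Vcan, 5.34% for Lum and 2.51% for Dcn.

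Read by comparison, 2 of the 10 genes, Bgn and Sned1, were called higher with MDA-MB-231 EVs against PBS, where limma called 17.9% of all 15025 genes tested higher, and 2, Dcn and Lum, were called lower, beside 16.9% of all genes. In either direction these are 4 of 10 genes beside 34.8% of all genes and 47.2% of those with a mean of at least 100 normalised reads. With MCF10A EVs against PBS Vcan was called higher, beside 17.1% of all genes, and Dcn and Fbln2 lower, beside 14.6%. In either direction these are 3 of 10 genes, beside 31.7% of all genes and 43.3% of the more abundant ones. The counts in both comparisons lie near the background. Between MDA-MB-231 and MCF10A EVs 3 genes, Bgn, Fbln2 and Sned1, were called higher, beside 6.84% of all genes, and 3, Dcn, Lum and Vcan, lower, beside 10.1%. In either direction these are 6 of 10 genes, beside 16.9% of all genes and 23.0% of the more abundant ones. The 10 genes were chosen with earlier results of these data known, so this count cannot show an excess over the background. Eln and Fmod are counted among the 10 but are not among the more abundant genes.

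The split of all calls moved with scaling. For MDA-MB-231 EVs against PBS limma called 2688 genes higher and 2543 lower, and with library totals 3979 and 1888. Between the EVs it called 1027 higher and 1514 lower, with library totals 1784 and 1106, and under quantile scaling 1244 and 1209. By edgeR on recovered reads 45.0%, 41.8% and 24.2% of genes were called in the 3 comparisons in the order above. These are shares of the 12352 genes that edgeR tested, fewer than limma tested. The median log2 change over the 10 genes was 0.03, -0.05 and 0.14, and the second turned to 0.01 under quantile scaling. These medians include Eln and Fmod, which were at the limit of detection. By edgeR, which tested 8 of the 10 genes, the medians were 0.03, -0.03 and 0.11. Over all genes that limma tested the median was 0.01, 0.00 and -0.00. Both comparisons with PBS use the same 2 PBS libraries.

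In the order of group levels, neighbours that limma did not call apart were PBS and MCF10A EVs for Bgn, Lum and Sned1, and PBS and MDA-MB-231 EVs for Vcan and Fbln2, the latter pair except under the scalings named above. For Dcn all 3 groups were called apart, and for Fbn1 and Fbln1 none were.

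**Figure D3:**
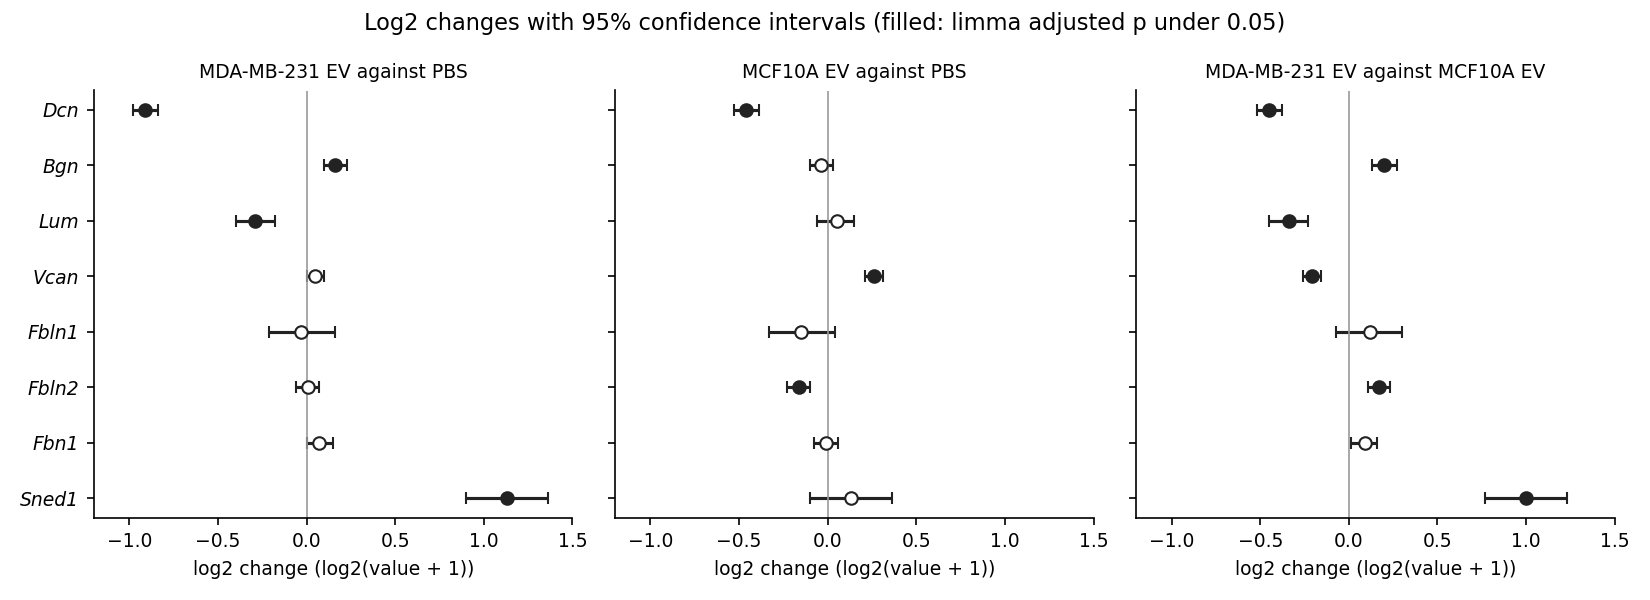
Log2 changes of the 8 genes in the 3 comparisons, on the scale of log2 of the value plus 1, with 95% confidence intervals from limma. Filled points passed an adjusted p of 0.05. Dcn lies at -0.91, -0.46 and -0.45, and Sned1 at 1.13, 0.13 and 1.00.

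Related genes were described in 5 lists, to be read beside the percentages of all genes called given above. The median of a list covers all its tested genes, those with few reads included. Genes outside the naming rule that are named for a small count were chosen after their values were seen. Of 14 other small leucine-rich proteoglycan genes 13 were tested, and 3 had a mean of at least 100 normalised reads. Prelp, which encodes a proteoglycan that anchors basement membranes to connective tissue, fell in both comparisons with PBS and in the other order from Dcn. It stood at 4065 and 4079 normalised reads in the PBS libraries, 2146 and 2076 after MCF10A EVs and 2944 and 2878 after MDA-MB-231 EVs. That is 1.93-fold lower with MCF10A EVs against PBS (limma adjusted p = 8.94e-11) and 1.40-fold lower with MDA-MB-231 EVs (limma adjusted p = 4.25e-08). Between the EVs Prelp was 1.38-fold higher with MDA-MB-231 EVs (limma adjusted p = 2.41e-07). Tsku, which encodes tsukushi, a secreted modulator of signalling, fell 1.15-fold with MDA-MB-231 EVs against PBS (limma adjusted p = 4.61e-04), and with MCF10A EVs it was called higher at a log2 change of 0.14 (limma adjusted p = 0.00926). That call was lost by DESeq2 (DESeq2 adjusted p = 0.0724), by limma without a trend and without any 1 of the PBS or MCF10A EV libraries. Ogn and Omd, chosen after their values were seen, were called higher with MDA-MB-231 EVs against PBS, from means of few reads. Ogn had 9 and 6 reads with PBS and 26 and 34 with MDA-MB-231 EVs, and Omd had 14 and 6 against 24 and 25.

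Among 22 tested genes of other proteoglycans, hyaluronan synthases and link proteins, 10 fell and 1, Cspg4, rose with MDA-MB-231 EVs against PBS, with a median log2 change of -0.34. With library totals and under quantile scaling 2 of this list rose. With MCF10A EVs 9 fell and Gpc1 and Hspg2 rose, with a median of -0.28, and DESeq2 called 1 higher and 7 lower. Cspg4, the NG2 chondroitin sulfate proteoglycan, stood at 861 and 929 normalised reads in the PBS libraries, 712 and 735 after MCF10A EVs and 1254 and 1189 after MDA-MB-231 EVs, and it was 1.69-fold higher with MDA-MB-231 than with MCF10A EVs (limma adjusted p = 2.18e-07). Has2, which like Has1 and Has3 encodes a synthase of hyaluronan, stood at 3006 and 3273 in the PBS libraries, 2264 and 2144 after MCF10A EVs and 2037 and 2217 after MDA-MB-231 EVs. It fell 1.42-fold and 1.48-fold with the 2 kinds of EV (limma adjusted p = 2.10e-06 and limma adjusted p = 3.73e-07). Has1 fell 1.5-fold with MDA-MB-231 EVs (limma adjusted p = 4.72e-04), and the syndecans Sdc4 and Sdc1 fell 1.27-fold and 1.25-fold with MCF10A EVs against PBS (limma adjusted p = 5.02e-06 and limma adjusted p = 1.99e-05). Between the EVs 3 genes were higher (1 by DESeq2) and 3 lower, among them Gpc1, a glypican, at 1.36-fold lower with MDA-MB-231 EVs (limma adjusted p = 3.67e-07).

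Of 20 tested genes of other fibulins, fibrillins and elastic fibre assembly, 3 (Efemp1, Fbln5 and Lox) rose and 7 fell with MDA-MB-231 EVs against PBS, and 2 (Fbln5 and Efemp2) rose and 7 fell with MCF10A EVs. The 7 that fell with MDA-MB-231 EVs include Emilin3, which had a mean of 1.20 normalised reads. The medians were -0.03 and -0.07, and the first turned to 0.03 with library totals and 0.02 under quantile scaling. Fbln5, a fibulin that binds elastin and is needed for elastic fibre assembly, stood at 982 and 999 normalised reads in the PBS libraries, 1277 and 1256 after MCF10A EVs and 1527 and 1523 after MDA-MB-231 EVs. The 3 groups did not overlap, and it rose 1.54-fold with MDA-MB-231 EVs against PBS (limma adjusted p = 3.57e-08). Mfap5, a microfibril glycoprotein gene, fell 1.77-fold with MDA-MB-231 EVs and 1.90-fold with MCF10A EVs, from 269 and 257 to 141 and 155 and to 131 and 145 (limma adjusted p = 5.64e-05 and limma adjusted p = 2.87e-05). Lox, the lysyl oxidase that crosslinks elastin and collagen, stood at 12777 and 12879 in the PBS libraries, 9822 and 9545 after MCF10A EVs and 15839 and 15801 after MDA-MB-231 EVs. The EVs moved it in opposite directions against PBS, 1.32-fold lower and 1.23-fold higher (limma adjusted p = 4.38e-08 and limma adjusted p = 4.15e-07), and it was 1.63-fold higher with MDA-MB-231 than with MCF10A EVs (limma adjusted p = 2.33e-10). Efemp1, or fibulin-3, was 1.33-fold higher with MDA-MB-231 than with MCF10A EVs (limma adjusted p = 3.85e-07), and Ltbp2, a latent TGF-beta binding protein of microfibrils, fell 1.43-fold with MCF10A EVs (limma adjusted p = 1.16e-08).

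Of the enzymes that build chondroitin and dermatan sulfate chains, which decorin, biglycan and versican carry, those called against PBS were lower, apart from B3galt6. With MDA-MB-231 EVs 7 of 20 tested fell and 0 rose, with a median of -0.15. With MCF10A EVs 5 fell and B3galt6 rose, with a median of -0.07. In either direction limma called 34.8% and 31.7% of all genes in these comparisons, so the number of calls lay near the background. It called 16.9% and 14.6% of all genes lower. Among the 10309 genes with a mean of at least 100 normalised reads it called 2321 and 1965 lower. Whether the enzymes fell more often than these genes was not tested. The 7 that fell with MDA-MB-231 EVs include Chst7, which had a mean of 11.2 normalised reads. The count of 0 that rose by limma was also 0 at an unadjusted p of 0.05, by edgeR and by DESeq2. DESeq2 called 4 of them lower with MDA-MB-231 EVs, and with library totals 3 rose and 5 fell with MCF10A EVs. Chst11, a chondroitin sulfotransferase, stood at 1404 and 1368 normalised reads in the PBS libraries, 1116 and 1111 after MCF10A EVs and 961 and 957 after MDA-MB-231 EVs, a fall of 1.24-fold and 1.44-fold (limma adjusted p = 7.35e-05 and limma adjusted p = 2.60e-07). Chpf2, which encodes a chondroitin polymerising factor, and Chst12, a second sulfotransferase gene, fell 1.22-fold and 1.16-fold with MDA-MB-231 EVs (limma adjusted p = 1.99e-05 and limma adjusted p = 4.83e-04). The B3galt6 rise, at an adjusted p of 0.0479 by limma, was lost under 12 alternatives, leaving out any 1 library among them.

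Among 8 tested genes of proteases that cleave versican, other hyalectans or elastin, Adamts1, Adamts4 and Adamts9 fell in both comparisons with PBS, with medians of -0.54 and -0.31 over the list. Of the 8 genes 4 had a mean of at least 100 normalised reads. The medians also include Adamts8 and Mmp12, which had at most 3 reads in a library. Adamts1, a versican-cleaving protease, stood at 2467 and 2521 normalised reads in the PBS libraries, 1619 and 1671 after MCF10A EVs and 1487 and 1473 after MDA-MB-231 EVs. It fell 1.52-fold with MCF10A EVs and 1.68-fold with MDA-MB-231 EVs (limma adjusted p = 3.70e-08 and limma adjusted p = 1.37e-09). Adamts9 fell 1.25-fold and 1.31-fold (limma adjusted p = 5.77e-05 and limma adjusted p = 5.77e-06). Adamts4, an aggrecanase, fell 1.63-fold with MDA-MB-231 EVs (limma adjusted p = 1.59e-05), and its 1.24-fold fall with MCF10A EVs was lost by DESeq2 (DESeq2 adjusted p = 0.0663), by limma without a trend and without any 1 of the 4 libraries compared. Adamts5, also an aggrecanase gene, stood at 2706 and 2618 in the PBS libraries, 2712 and 2963 after MCF10A EVs and 3146 and 3266 after MDA-MB-231 EVs, and was called higher with MDA-MB-231 EVs against PBS (limma adjusted p = 1.40e-04). Its 1.13-fold higher level with MDA-MB-231 than with MCF10A EVs was lost by limma without a trend (limma adjusted p = 0.205) and without MCF10A EV replicate 1, where the log2 change was 0.11, or without any PBS or MDA-MB-231 EV library.

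**Figure D4:**
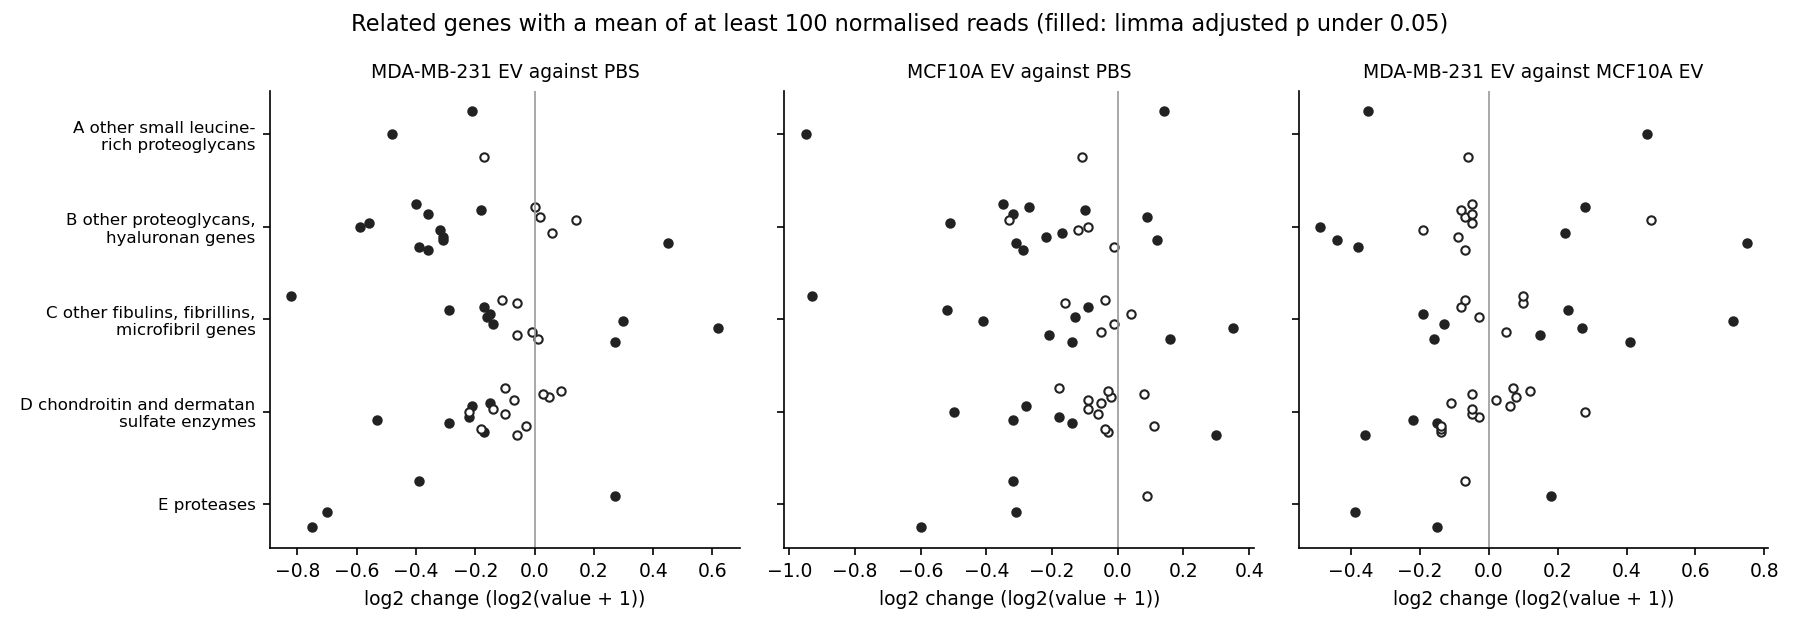
Log2 changes, on the scale of log2 of the value plus 1, of the related genes with a mean of at least 100 normalised reads, by list and comparison. Each point is 1 gene and filled points passed a limma adjusted p of 0.05. In list B 10 of the filled points against PBS lie below 0 with MDA-MB-231 EVs, and in list E the lowest are Adamts1 at -0.75 and Adamts4 at -0.70.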

How the data were processed

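Stranded mRNA libraries were sequenced, per the labels' protocols. TopHat2, edgeR and the human build hg19 are listed per the submitters' processing notes, although the table holds mouse genes placed on mouse chromosomes. Annotation, counter, strand setting and mouse build were not given in the sources used here, so genes are located by chromosome. The authors deposited a normalised signal, which are edgeR pseudo-counts equalised to 1 library size using the group labels. Inverting this step gave whole reads for 100.0% of 122850 values, within a relative 1e-06. On these reads edgeR 4.0.16 called 5554 genes when MDA-MB-231 EVs were set against PBS, 5160 when MCF10A EVs were, and 2987 between the EVs. DESeq2 1.42.0 was the other alternative on reads.

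The plan foresaw counts or values such as CPM, and the test for such values was used: limma 3.58.1 with trend (R 4.3.3) on the log2 scale with a pseudocount of 1, over all 6 libraries. It covered 15025 genes that reached 1 normalised read in 2 libraries, with Benjamini-Hochberg adjustment over all of them and calls at 0.05. The alternatives changed the pseudocount, filter, trend, samples, block, scaling and tool, and left out each library. The 10 genes and the lists were chosen with earlier results of these data known. Related genes were named by a rule: per list and comparison, up to 3 called genes with the largest change, a mean of at least 100 normalised reads and no overlap between the groups' libraries. List A held other small leucine-rich proteoglycans, B other proteoglycans and hyaluronan genes, C other elastic fibre genes, D chain enzymes and E proteases. GENCODE exon lengths were found for 95.8% of genes. The recovery and the tests were tested on simulated data.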

Additional observations from a re-analysis of the deposited data

How the results depend on the processing

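The 2 libraries a group limit every test here, and depth limits Eln and Fmod. With a library left out, its group has 1, whose spread is taken from the other groups, so calls kept or lost that way are weak evidence on either side. Over the 8 genes with more than 3 reads in a library and the 3 comparisons, 382 of the alternative values kept their direction and their side of the threshold, 6 lost a call, 10 gained one and 10 changed sign without being called. The sign changes with MDA-MB-231 EVs against PBS were Fbln1 to 0.04 with library totals and 0.0075 without PBS replicate 1 (range without 1 library -0.06 to 0.0075), and Fbln2 to -0.0022 with DESeq2, -0.0095 without PBS replicate 2 and -0.02 without MDA-MB-231 EV replicate 1 (range -0.02 to 0.03). With MCF10A EVs against PBS they were Bgn to 0.01 under quantile scaling, and Fbn1 to 0.02 under quantile scaling, 0.01 with library totals, 0.02 without PBS replicate 2 and 0.03 without MCF10A EV replicate 2 (range -0.05 to 0.03). The cause of these changes was not tested.

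Of the 10 genes, limma without trend called 1 higher with MDA-MB-231 EVs against PBS, 1 lower with MCF10A EVs against PBS and 1 higher between the EVs. Quantile scaling called 4 and library totals 5 higher with MDA-MB-231 EVs against PBS. Leaving out 1 library gave 1 to 2 genes higher and 2 to 2 lower in that comparison, 1 to 1 and 2 to 2 with MCF10A EVs, and 3 to 3 and 3 to 3 between the EVs. Over all genes limma called 2688 higher and 2543 lower with MDA-MB-231 EVs, 2571 and 2193 with MCF10A EVs, and 1027 and 1514 between the EVs. Without trend these were 1634 higher with MDA-MB-231 EVs, 1228 and 1003 with MCF10A EVs, and 124 and 254 between the EVs. DESeq2 called 1756 higher with MDA-MB-231 EVs, 1646 higher with MCF10A EVs, and 577 higher and 938 lower between the EVs. Between the EVs 628 were higher when only the 2 groups were fitted and 1784 with library totals. Leaving out 1 library gave 1592 to 2451 higher and 1767 to 2377 lower with MDA-MB-231 EVs, 1627 to 2186 and 1183 to 1801 with MCF10A EVs, and 186 to 624 and 535 to 1075 between the EVs.

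Same-numbered libraries did not deviate together, with correlations of replicate 1 minus replicate 2 of -0.006, -0.004 and 0.019 over 10309 genes. This shows no shared deviation by replicate number, but it cannot show whether the samples were handled in pairs. With the replicate number as a block limma called 2662 genes higher and 2525 lower with MDA-MB-231 EVs, 2562 and 2184 with MCF10A EVs, and 1039 and 1521 between the EVs, and the block changed no call of the 10 genes.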
